A study of Rattus norvegicus with 218 samples.

Results

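The left and right dorsal motor nucleus of the vagus (DMV) were compared after sham surgery, in neurons taken from both sides of the same 4 rats. The samples were those that the labels place on the left or right side of the DMV in sham rats and that gave a Ct value in at least 42 of 168 assays. Of 70 sham samples 62 passed, against 186 of 213 samples in the whole series. The 33 left and 29 right samples held 111 and 98 cells. The sample labels number the sham rats SHAM1 to SHAM4 and were followed here, although the protocol text speaks of 3 biological replicates.

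All rats in the series were adult male Sprague Dawley rats. Sham rats were anesthetized with ketamine/xylazine and their femoral vessels were exposed on both sides but not tied, and tissue was taken 2.5 hours after the time that matches reperfusion. Rats given remote ischemic preconditioning (RIPC) had the same anesthesia and exposure with the femoral vessels tied off for a time and then released, and naive rats had no surgery. Cells stained for the neuronal protein NeuN were laser-captured singly or in pools, their complementary DNA was preamplified, and 165 genes were assayed by microfluidic RT-qPCR.

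The DMV is a paired brainstem nucleus whose cholinergic motor neurons send preganglionic fibers in the vagus to the heart, stomach and other organs. The nerves of the left and right sides differ in part of their targets, both in the heart and in the stomach. Beside motor neurons the nucleus holds GABA neurons and some catecholamine neurons, and it lies next to other groups of noradrenaline neurons of the medulla.

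Each gene gave a pair of measures. The first was the share of samples from 1 side of an animal with a value above the limit of detection. The second was the level in the samples with a value (−ΔCt), in cycles, so that a higher level is more transcript. It was the sample's median Ct over 35 reference genes minus the Ct of the gene. The same 35 genes served for all samples, those detected in most kept samples of the whole series. Left minus right differences were taken within each animal, and the animal was the unit of the tests, apart from an alternative run over samples.

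Neuronal genes were found throughout on both sides. Scn2a, a sodium channel gene of neurons, had a value in 61 of 62 samples, Camk2a in 59, Rgs4 in 58 and Eno2 in 55. Ache, which encodes acetylcholinesterase, had a value in 58 samples and Chat, the acetylcholine-synthesizing enzyme that marks vagal motor neurons, in 49. Gfap, an astrocyte gene, had a value in 51 samples. It was the only astrocyte marker on the panel, which held no marker of oligodendrocytes, microglia or endothelium.

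The 2 sides were not sampled alike in every animal. SHAM1 gave 2 pools and 4 single neurons on the left against 5 and 3 on the right, and SHAM2 gave 5 and 2 against 6 and 1. SHAM3 gave 8 pools and no single neuron on the left against 3 pools and 1 single neuron on the right, and SHAM4 gave 9 and 3 against 8 and 2. Pools averaged 4.25 cells on the left and 4.14 on the right, with up to 8 cells in 1 left pool. The 8 samples under the limit had 19 to 41 assays with a value, 5 of them from the right side and 3 from the left, while the lowest among the kept samples had 51.

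The number of assays with a value was compared first, since it bears on every share. The animal means were 89.5 ± 8.75 assays for the left side and 85.0 ± 7.87 for the right (SD, n = 4 animals), a difference of 4.53 ± 6.05 that was positive in 3 of 4 animals (exact sign-flip permutation test, two-sided, p = 0.375). With 4 animals the smallest p this test can give is 0.125. Without SHAM1 the difference was 7.22 assays and without SHAM2 it was 2.75, each over 3 animals. With the 8 samples under the limit counted in, the difference was 5.73 ± 2.18 assays and the left mean was higher in 4 of 4 animals (exact p = 0.125), SHAM1 going from −3.54 to 6.42. The reference Ct, the median over the 35 genes, was 13.5 ± 0.402 cycles on the left and 13.6 ± 0.383 on the right, and the difference of −0.14 ± 0.145 cycles was not past the same test either (exact p = 0.25).

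**Figure D1:**
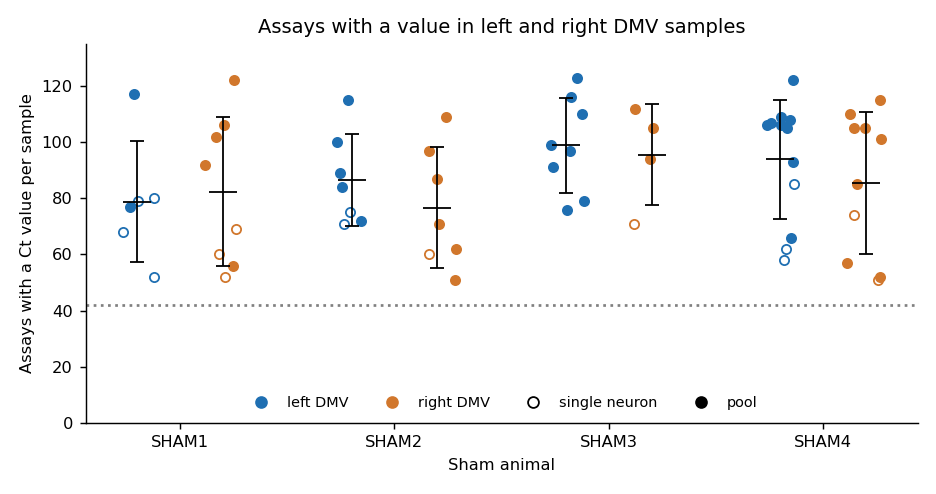
Number of assays with a Ct value in each of the 62 kept samples, by sham animal and side, with open circles for single neurons and filled circles for pools; black bars are the mean and SD, and the dotted line is the limit of 42 assays. The sides overlap in every animal, and the left mean is above the right in SHAM2, SHAM3 and SHAM4 but not in SHAM1.

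No gene differed between the sides by share past the threshold. Of the 132 genes with a value in 10% to 95% of the samples, 0% were called higher on the left and 0% higher on the right at an adjusted p under 0.05 (limma on the 4 animals' differences, Benjamini-Hochberg), and 4 genes had an unadjusted p under 0.05. Dbh, Chat and Npr3 were among them, each with more positive samples on the left and an adjusted p of 0.807. At that unadjusted limit 6.6 of the 132 genes would be expected by chance. The spread of the differences did not vary among genes beyond what limma assigns to sampling, so that each gene received the same standard error of 10.4 percentage points and a 95% interval reaching 20.5 points to either side. A difference of the size seen for most genes was therefore not detectable with these animals. Of the 132 genes, 78 had a higher mean share on the left and 54 on the right, and the median difference was 2.84 points toward the left. After each sample was adjusted for the number of other genes detected the split was 60 and 72, with a median of −0.99 points. Over pools alone 131 genes were tested, 78 higher on the left and 53 on the right, with a median of 2.43 points.

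The gene with the largest difference was Dbh, dopamine beta-hydroxylase, the enzyme that makes noradrenaline from dopamine. In SHAM1 it had a value in 1 of 6 left and 0 of 8 right samples, and in SHAM2 in 4 of 7 and 3 of 7. In SHAM3 it was found in all 8 left samples and 3 of 4 right ones, and in SHAM4 in 8 of 12 and 1 of 10. The left share was the higher one in all 4 animals, while the animals themselves ranged from nearly none to nearly all samples positive. The mean shares were 60.1 ± 34.3% for the left side and 32 ± 34% for the right (SD, n = 4 animals). The difference was 28.2 points with a 95% interval of 7.69 to 48.6 (limma, unadjusted p = 0.00712, adjusted p = 0.807), and the exact test gave its smallest possible p of 0.125. Without SHAM4 the difference was 18.7 points over 3 animals.

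Dbh was found mostly in pools. Of 24 left pools 20 had a value against 6 of 22 right pools, with 1 of 2 and 0 of 5 in SHAM1, 4 of 5 and 3 of 6 in SHAM2, 8 of 8 and 3 of 3 in SHAM3, and 7 of 9 and 0 of 8 in SHAM4. Over pools alone the left share was thus higher in 3 animals and equal in SHAM3, and the difference was 39.4 ± 32.8 points (n = 4 animals, exact p = 0.25, limma, adjusted p = 0.641). Single neurons with a value numbered 1 of 9 on the left and 1 of 7 on the right. The difference of 25 points in SHAM3 came from its 1 right single neuron, which had no value, in an animal with no left single neuron. In a pool, fewer cells with a transcript and less transcript per cell cannot be told apart. Where Dbh was present its level ran from −8.99 to 3.38 cycles with a median of −2.26 on the left, and from −4.07 to 2.24 with a median of −1.37 on the right, so the sides overlapped. The number of assays with a value was also higher on the left in 3 of the animals, and after adjustment for the number of other genes detected the Dbh difference was 25.4 points (limma, adjusted p = 0.958). The share of samples with Gfap differed by 7.32 ± 19.7 points toward the left, and its part in the Dbh result was not tested.

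Th, which encodes tyrosine hydroxylase, the enzyme upstream of Dbh in the same pathway, was found at close shares on both sides. Th had a value in 27 of 33 left and 24 of 29 right samples, a mean of 81.8 ± 14.4% against 84.1 ± 13.3% (difference −2.26 points, 95% interval −22.7 to 18.2, limma, adjusted p = 0.977). Its level was 2.26 ± 1.06 cycles on the left and 1.92 ± 0.673 on the right (difference 0.33 cycles, limma, adjusted p = 0.911). Of the 21 left samples with Dbh 20 also had Th, and all 7 right samples with Dbh did. Among pools, Th without Dbh was present in 1 of 24 on the left and 13 of 22 on the right. This split was looked at after the values of Dbh had been seen. By animal the right share was 80% in SHAM1, 16.7% in SHAM2, 0% in SHAM3 and 100% in SHAM4. The left share was 11.1% in SHAM4 and 0% elsewhere. The difference was −46.4 ± 44.6 points (SD, n = 4 animals, exact p = 0.25). Th had a value in 21 of 24 left and 19 of 22 right pools, so the split mostly repeats that of Dbh. Among single neurons Th without Dbh was present in 6 of 9 on the left and 4 of 7 on the right. Of the 5 genes tested for catecholamine synthesis and dopamine receptors 0 were called, 2 had a higher mean share on the left and 3 on the right, and their median difference was −0.80 points beside 2.84 over all genes, or −5.62 after adjustment for the number of other genes detected. Over pools alone the order turned, with 3 genes higher on the left, 2 on the right and a median of 4.38 points.

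Chat followed the same order as Dbh in share. It had a value in 6 of 6 left and 4 of 8 right samples in SHAM1, 5 of 7 and 3 of 7 in SHAM2, 8 of 8 and 4 of 4 in SHAM3, and 11 of 12 and 8 of 10 in SHAM4. The left share was higher in 3 animals and equal in SHAM3, where every sample was positive. The means were 90.8 ± 13.5% and 68.2 ± 26.6%, a difference of 22.6 points with an interval of 2.10 to 43 (limma, unadjusted p = 0.0308, adjusted p = 0.807, exact p = 0.25). The level ran the other way, at −0.59 ± 0.360 cycles on the left and 0.07 ± 0.620 on the right, with the right side higher in SHAM1, SHAM2 and SHAM3 (difference −0.65 cycles, limma, adjusted p = 0.911). Single samples weighed on these means, namely a left pool of SHAM1 at −8.63 cycles and a right single neuron of SHAM4 at −8.83. With values more than 5 cycles below the median of the gene left out, a setting chosen after seeing the data, the difference was −0.55 ± 0.411 cycles, only −0.057 in SHAM1, and the right was higher in all 4 animals (limma, adjusted p = 0.980). The median level over positive samples was 0.16 cycles on the left and 0.15 on the right. Without SHAM1 the difference in share was 13.4 points, and over pools alone it was 14.8.

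Of the 10 genes for acetylcholine synthesis, breakdown and receptors, all were tested by share, 6 had a higher mean on the left and 4 on the right, and 0 were called. Their median difference was 4.84 points, and 0.21 after adjustment for the number of other genes detected, with the same split of 6 and 4. Ache was found in 32 of 33 left and 26 of 29 right samples, and its difference of 5.45 points had an interval of −15.0 to 25.9 (limma, adjusted p = 0.977). By animal the Ache difference was 0 points in SHAM1, 14.3 in SHAM2, −12.5 in SHAM3 and 20 in SHAM4.

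Esr1, which encodes estrogen receptor alpha, was rare, with 7 of 33 left samples and 1 of 29 right samples positive. The counts were 1 of 6 and 0 of 8 in SHAM1, 2 of 7 and 1 of 7 in SHAM2, 3 of 8 and 0 of 4 in SHAM3, and 1 of 12 and 0 of 10 in SHAM4. Every positive sample was a pool, and the left share was higher in 4 of 4 animals (difference 19.2 points, interval −1.26 to 39.7, limma, adjusted p = 0.807).

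**Figure D2:**
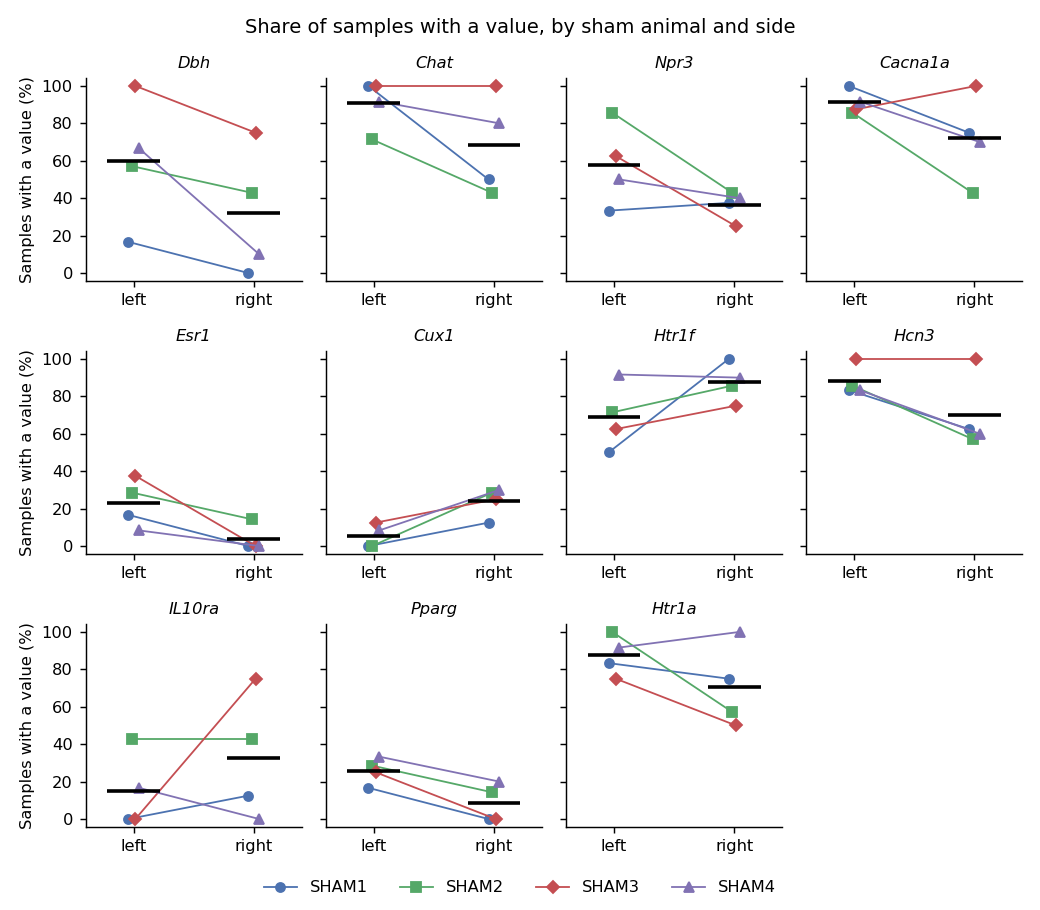
Share of samples with a value on the left and right side in each sham animal, in percent, for 11 of the 12 genes with the smallest p by share; lines join the sides of 1 animal and black bars are the means of 4 animals. Dbh, Esr1 and Pparg lie higher on the left in every animal and Cux1 lies higher on the right in every animal, while the other genes have at least 1 animal with no difference or the opposite order.

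Genes that ran the same way in every animal were few. By share, 3 of 132 genes were higher on the left in 4 of 4 animals (2.27%), Dbh, Esr1 and Pparg, and 1 was higher on the right in 4 of 4 (0.758%), Cux1. None of them was called. Pparg, a nuclear receptor of lipid metabolism, had a value in 9 of 33 left and 3 of 29 right samples, all of them pools, and its differences lay between 13.3 and 25 points, the narrowest spread among the 12 genes with the smallest p (mean 17.3 ± 5.31, SD, n = 4). Its counts were 1 of 6 left and 0 of 8 right samples in SHAM1 and 2 of 7 and 1 of 7 in SHAM2. They were 2 of 8 and 0 of 4 in SHAM3, and 4 of 12 and 2 of 10 in SHAM4. Each difference thus rested on few positive samples. Cux1, a homeobox transcription factor gene, had a value in 2 left and 7 right samples, with differences from −28.6 to −12.5 points (mean −18.8 ± 7.81). In SHAM3 Cux1 had a value in 1 of 8 left and 1 of 4 right samples, so its order there came from the number of samples.

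Receptor and channel genes filled the rest of the 12 smallest p values. Npr3, the clearance receptor for natriuretic peptides, had a value in 19 left and 11 right samples, with a difference of 21.5 points (interval 1.09 to 42, limma, unadjusted p = 0.0391, adjusted p = 0.807). It was higher on the left in SHAM2, SHAM3 and SHAM4, and in SHAM1 it had a value in 2 of 6 left and 3 of 8 right samples. Without SHAM2 the difference was 14.4 points, and over pools alone it was 31.2 points. Of the 4 natriuretic peptide and receptor genes tested 3 had a higher mean share on the left, with a median difference of 2.69 points, and 0 were called. After adjustment for the number of other genes detected 1 was higher on the left and 3 on the right, with a median of −1.17 points, and over pools alone 2 were higher on each side, with a median of 0.63.

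Cacna1a, the pore subunit of P/Q-type calcium channels, differed by 19.3 ± 23.1 points, with a value in 23 of 24 left and 16 of 22 right pools. It was higher on the left in SHAM1, SHAM2 and SHAM4 and on the right in SHAM3, by 12.5 points, and the difference was 11.4 points without SHAM2 and 29.8 without SHAM3. Among samples with at least 84 assays the Cacna1a difference was 0 points over 3 animals. Hcn3, a hyperpolarization-activated pacemaker channel, differed by 18.2 ± 12.5 points, with the left higher in 3 animals and all samples positive in SHAM3. Neither Cacna1a nor Hcn3 passed the test (limma, adjusted p = 0.807 for both). Among the 7 voltage-gated calcium channel genes tested by share, 5 had a higher mean on the left, with a median of 3.30 points. After adjustment for the number of other genes detected 3 were higher on the left and 4 on the right (median −0.59 points). Over pools alone all 7 were higher on the left, with a median of 12.8 points beside 2.43 over all genes. Among the 7 HCN, potassium and sodium channel genes 3 had a higher mean on the left, with a median of −1.64 points, and 1 after the adjustment, with a median of −3.28.

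Serotonin receptors split between the sides. Htr1a, an inhibitory receptor, had a higher mean share on the left by 17 ± 22 points, with SHAM4 going the other way (−8.33 points), and without SHAM2 the difference was 8.33 points. Htr1f had a higher mean on the right by 18.8 ± 22 points, most of it from SHAM1, where 3 of 6 left and 8 of 8 right samples were positive. Without SHAM1 the Htr1f difference was −8.37 points, over pools alone it was −1.04, and among samples with at least 84 assays it turned to 5.56 points toward the left. Of 9 serotonin receptor genes tested 5 had a higher mean on the left and 4 on the right (median 2.95 points, 0.75 after the same adjustment and 10.4 over pools alone, 0 called). IL10ra, a receptor subunit for interleukin 10, had a higher mean on the right by 17.7 points, and this came from SHAM3, with 0 of 8 left and 3 of 4 right samples positive. Without SHAM3 the IL10ra difference was 1.39 points toward the left.

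**Figure D3:**
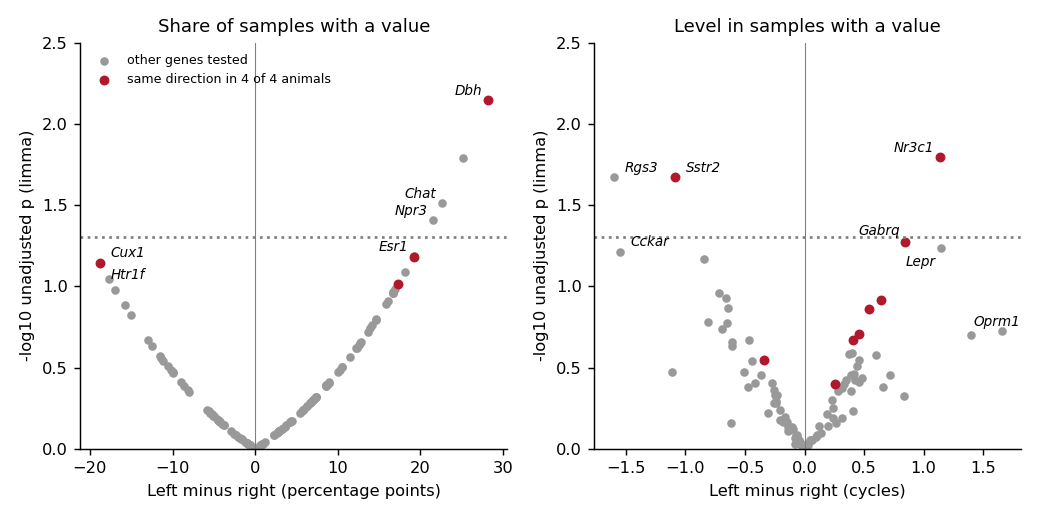
Left minus right difference against −log10 of the unadjusted limma p for the 132 genes tested by share (left panel, percentage points) and the 105 genes tested by level (right panel, cycles); red points had the same direction in 4 of 4 animals and the dotted line is an unadjusted p of 0.05. By share the points lie on a single curve because all genes have the same standard error, 4 genes lie above the line, and by level 3 do; 0 genes passed the adjusted threshold in either panel.

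Gad1 and Gad2 encode the enzymes that make GABA. Over all samples Gad1 or Gad2 was present in 21 of 33 on the left and 19 of 29 on the right, with animal means of 59.1 ± 30.9% and 67.2 ± 7.13% (exact p = 0.75). Among single neurons 2 of 9 left (22.2%, Wilson 95% interval 6.32 to 54.7) and 6 of 7 right ones (85.7%, 48.7 to 97.4) were positive. Gad2 alone gave these same counts, while Gad1 had a value in 2 of 9 left and 2 of 7 right single neurons. The counts for either gene were 0 of 4 and 2 of 3 in SHAM1, 1 of 2 and 1 of 1 in SHAM2, and 1 of 3 and 2 of 2 in SHAM4, and SHAM3 gave 1 right single neuron, which was positive, and none on the left. The left minus right difference was −61.1 ± 9.62 points, with the right share higher in all 3 animals, which gives the smallest exact p that 3 animals allow, 0.25, and 0.8 after adjustment over 8 comparisons of transmitter classes. Of the pools 19 of 24 on the left and 13 of 22 on the right were positive, with the left share higher in 2 animals and the right in 2 (exact p = 0.5). The intervals cover counting error only.

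Single neurons with Chat numbered 8 of 9 on the left (88.9%, Wilson 95% interval 56.5 to 98.0) and 3 of 7 on the right (42.9%, 15.8 to 75.0). Chat was present in 4 of 4 left and 0 of 3 right single neurons of SHAM1, in every single neuron of SHAM2, and in 2 of 3 and 1 of 2 in SHAM4 (exact p = 0.5). Both Chat and Gad1 or Gad2 were found in 2 left and 3 right single neurons. With 3 animals neither split between the sides could pass the test.

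For the GABA group of 8 genes, all tested, 6 had a higher mean share on the left and 2, Gad1 and Gad2, on the right. The median difference was 8.91 points, against 2.84 over all genes, and 0 were called. After adjustment for the number of other genes detected 4 had a higher mean on each side, with a median of 1.46 points, and over pools alone 5 were higher on the left, with a median of 1.77 points. Gabra2, a receptor subunit gene, was found in 30 left and 21 right samples (16.7 ± 12.9 points, higher on the left in 3 animals and equal in the other). Gabre, another subunit, was found in 22 left and 15 right samples (16.1 ± 12.1 points). By level 7 of the 8 genes had a higher mean on the left, with a median of 0.41 cycles against −0.02 over all genes, and 0 were called. The split of 7 and 1 was the same when levels were centred on all assays, not centred, or with values more than 5 cycles below the median of a gene left out.

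By level no gene passed the threshold either. Of 105 genes 0% were called higher on the left and 0% higher on the right (limma, adjusted p under 0.05), and 3 had an unadjusted p under 0.05, Nr3c1, Rgs3 and Sstr2, each with an adjusted p of 0.746. By chance 5.25 genes would be expected at that unadjusted limit. The median 95% interval reached 0.93 cycles to either side. The means of 50 genes were higher on the left and those of 55 on the right, and with levels centred on all assays the split was 67 and 38, with the median over genes at 0.10 in place of −0.02 cycles. Of the 88 genes with a level on both sides in all 4 animals, 7 were higher on the left in 4 of 4 (7.95%), Nr3c1, Gabrq, E2f1, Trpm7, Cacna1d, Hcn4 and Scn2a, and 2 were higher on the right in 4 of 4 (2.27%), Sstr2 among them. With values more than 5 cycles below the median of a gene left out, 0 genes were called, 3 had an unadjusted p under 0.05, and 4 of 87 genes were higher on the left in 4 of 4, E2f1, Cacna1d, Hcn4 and Scn2a, with Nr3c1, Gabrq and Trpm7 no longer among them.

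Nr3c1 encodes the glucocorticoid receptor. Its animal means were −0.91 on the left and −2.07 on the right in SHAM1, −1.19 and −2.88 in SHAM2, −0.23 and −1.66 in SHAM3, and −0.72 and −0.98 in SHAM4. The left was higher each time, by 0.26 to 1.69 cycles, with a mean of 1.13 ± 0.623 (SD, n = 4, limma, unadjusted p = 0.0160, adjusted p = 0.746). Over single samples the left levels ran from −4.09 to 2.97 with a median of −0.90, and the right from −8.02 to 1.09 with a median of −1.43. The lowest right value came from a single neuron of SHAM2, and the ranges otherwise overlapped. Without that value SHAM2 had means of −1.19 on the left and −1.17 on the right, a difference of −0.024 cycles, so that the left was higher in 3 of 4 animals and the mean difference was 0.71 ± 0.699 (limma, adjusted p = 0.980). In pools alone the difference was 0.58 cycles, and among samples with at least 84 assays 0.33.

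Sstr2, a somatostatin receptor that inhibits neurons, was lower on the left in every animal. The means were −2.63 and −2.19 in SHAM1, −2.20 and −0.70 in SHAM2, −1.72 and −1.11 in SHAM3, and −2.41 and −0.61 in SHAM4, with 2 to 7 positive samples behind each. The difference was −1.09 ± 0.667 cycles (95% interval −1.95 to −0.22, limma, adjusted p = 0.746), and it was −1.10 in pools alone over 3 animals. Rgs3, a regulator of G protein signaling, had a level on both sides in 3 animals and was lower on the left in each, with a difference of −1.60 ± 1.03 cycles (limma, adjusted p = 0.746) and of −0.90 in pools alone. Without SHAM1, whose left samples ran down to −11.7 cycles, the Rgs3 difference was −1.04 over 2 animals. With its 2 lowest values left out by the limit of 5 cycles it was −0.67 ± 0.708 over 3 animals, of which 2 had the lower level on the left. Gabrq, a GABA receptor subunit, was higher on the left by 0.85 ± 0.665 cycles, from almost 0 in SHAM3 to 1.63 in SHAM2, where 2 right samples had a value. This order rested on right single neurons at −7.07 cycles in SHAM1 and −9.22 in SHAM4. Without them the difference was −0.28 cycles in SHAM1 and −0.22 in SHAM4, and the mean was 0.28 ± 0.905, with 2 animals higher on each side (limma, adjusted p = 0.980). In pools alone it was also 0.28 cycles.

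**Figure D4:**
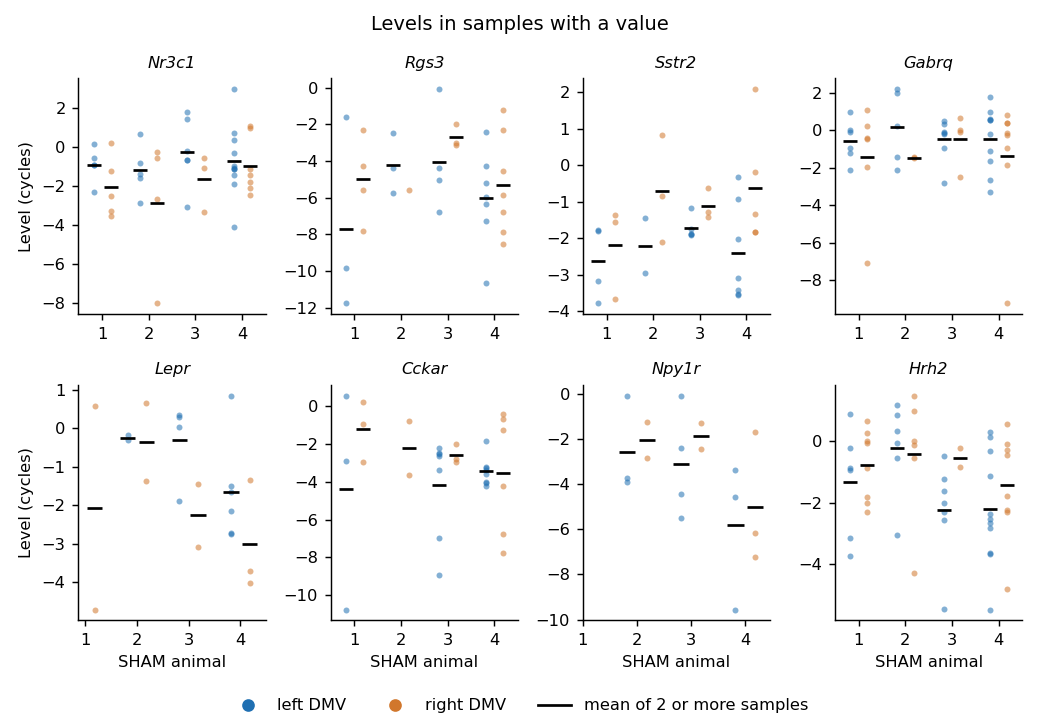
Level in cycles of the 8 genes with the smallest p by level in every kept sample with a value, by sham animal and side; black bars are means of 2 or more samples. Nr3c1 and Gabrq means lie higher on the left in all 4 animals, with right single neurons between −9.22 and −7.07 cycles behind part of that order, Sstr2 means lie higher on the right in all 4, and single samples of the sides overlap for each gene over all animals.

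Feeding and peptide receptors were among the other genes with small p values by level, and none was called. Lepr, the leptin receptor, differed by 1.14 ± 0.938 cycles over 3 animals, with 12 left and 9 right positive samples, while its share was almost equal (−1.25 points). Cckar, a cholecystokinin receptor, differed by −1.55 ± 1.60 cycles and Npy1r, a neuropeptide Y receptor, by −0.85 ± 0.365, both over 3 animals. Without SHAM1 the Cckar difference was −0.75 cycles. With the low values left out these became −0.22 ± 0.485 and −0.22 ± 1.18 cycles, with animals on both sides of 0. Of the 6 gut hormone, leptin and insulin genes tested by level 3 had a higher mean on each side. Cartpt, a peptide transmitter, had a value in 24 left and 17 right samples and differed by 11.5 ± 25.4 points in share and by 0.84 ± 3.11 cycles in level, with the animals on both sides of 0. Without SHAM1 the Cartpt difference in share was 0.040 points. Without SHAM1 the Cartpt difference in share was 0.040 points.

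Histamine receptors had lower mean levels on the left for all 3 genes tested. Hrh2 differed by −0.72 ± 0.781 cycles, Hrh3 by −0.64 ± 0.747 and Hrh4 by −0.47 ± 1.38 (limma, adjusted p = 0.911 for each). Hrh2 and Hrh3 were lower on the left in 3 of 4 animals and Hrh4 in 2. The Hrh2 difference was largest in SHAM3, at −1.70 cycles, against −0.57 in SHAM1, 0.19 in SHAM2 and −0.78 in SHAM4. All 3 means stayed below 0 when levels were centred on all assays, not centred, or with the low values left out, where Hrh3 was at −0.24 ± 0.452 cycles with 2 animals higher on each side. By share the 4 histamine receptor genes had a median of −2.29 points, with 2 higher on each side, and after adjustment for the number of other genes detected −6.87 points, with 1 higher on the left and 3 on the right. Hcrtr1, an orexin receptor, had a value in 13 samples of each side and differed by 0.24 ± 1.2 cycles in level, and Oxtr, the oxytocin receptor, was present in 61 of 62 samples with a difference of 0.31 ± 0.680 cycles, or 0.028 without SHAM1.

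Fos, an immediate-early gene that neurons switch on with activity, was found in 13 left and 5 right samples. The counts were 0 of 6 and 2 of 8 in SHAM1, 2 of 7 and 2 of 7 in SHAM2, 6 of 8 and 1 of 4 in SHAM3, and 5 of 12 and 0 of 10 in SHAM4. The animals went both ways, and the difference of 16.7 ± 35.4 points did not pass (limma, adjusted p = 0.807, exact p = 0.5). It was 5.56 points without SHAM3, 8.33 without SHAM4 and 30.6 without SHAM1. FosB had no value in any of the 62 samples. Of the 11 immediate-early, stress and transcription factor genes tested by share 8 had a higher mean on the left, with a median of 7.08 points, or 5.05 after adjustment for the number of other genes detected, and 0 were called.

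Among the remaining groups the 4 adrenergic receptor genes had a median of 3.50 points by share (3 higher on the left), the 11 opioid, somatostatin and related receptor genes 2.68 (6 higher), the 6 neuropeptide genes 5.09 (4 higher), the 3 angiotensin genes 2.77 (2 higher) and the 6 prostaglandin, cytokine and nitric oxide genes −4.60 (2 higher), with 0 called in each. After adjustment for the number of other genes detected these medians were −0.75 (2 higher on the left), −1.01 (5), 1.48 (4), −2.94 (1) and −5.91 points (2). Over pools alone the genes to test were picked anew by their share in pools. The medians were then −0.52 (1 of 4 higher on the left), 1.2 (6 of 10), −2.36 (2 of 6), 0.42 (2 of 3) and 1.46 points (4 of 7). Those of the adrenergic, neuropeptide and prostaglandin groups changed sign, the last with 7 genes tested in place of 6. The 3 pan-neuronal genes tested by share had a median of 7.11 points, all higher on the left, and by level 4 of 5 were higher on the left with a median of 0.23 cycles, or 3 of 5 with a median of 0.025 with the low values left out. After adjustment for the number of other genes detected 2 of the 3 shares were higher on the left. The 3 reference genes differed by −0.13 to 0.12 cycles in level, and Rpl19 had a value in only 18 left and 17 right samples.

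Hierarchical clustering of the 186 kept samples of the series into 6 groups put 34 of the 62 sham samples in the largest cluster and 21 in the second. The largest held 63.8 ± 16.6% of an animal's left samples and 51.5 ± 32.7% of its right samples, a difference of 12.3 ± 35.7 points with SHAM3 going the other way (exact p = 0.5, 1 after adjustment over 6 clusters). The second cluster held 26.8 ± 24.4% and 36.3 ± 26.2% (exact p = 0.75). Sham samples of the largest cluster had 96.9 assays with a value on average and those of the second 70.4, so the clusters also parted samples by the number of genes detected. Of the other clusters 1 held 4 sham samples and 1 held 3, all pools, and the remaining 2 held none.

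Whether the sides differed in another way than in unoperated or preconditioned rats was tested on the animals' own differences. By share 132 genes were compared over 4 sham, 2 naive and 3 RIPC animals, and 0% were called against naive and 0% against RIPC (limma, adjusted p under 0.05), with 1 and 4 genes at an unadjusted p under 0.05. By level 96 genes were compared with each group, 0% were called in either, and 2 and 3 had an unadjusted p under 0.05. The numbers expected by chance were 6.6 for each contrast by share and 4.8 for each by level. The median 95% interval for a difference in share reached 34.8 points to either side against naive and 30.7 against RIPC. Both contrasts use the same sham animals, so they are not independent of each other. Sample types also differed between the groups. Sham samples were 24 pools and 9 single neurons on the left and 22 and 7 on the right. By their labels, most samples of the RIPC animals IPC2 and IPC3 were single neurons. So were most of naive animal N3, which gave 65 of the 81 kept naive samples. The contrasts are thus not between like samples. Compared within sample type, 0 genes were called in either contrast by share or by level.

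Chat had the smallest p against naive. Its left minus right difference was 22.6 points in sham, −19.4 ± 10.6 in naive (n = 2) and −12.7 ± 18 in RIPC (n = 3), where no animal had a higher share on the left. The contrast with naive was 42 points (interval 7.12 to 76.8, limma, unadjusted p = 0.0198, adjusted p = 0.908) and that with RIPC 35.3 points (4.53 to 66, adjusted p = 0.838). Npr3 was lower on the left in both naive animals (−6.66 ± 4.06 points) and in all 3 RIPC animals (−14.3 ± 4.12), and its contrast with RIPC was 35.8 points (5.91 to 65.8, unadjusted p = 0.0205, adjusted p = 0.838).

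The order of Dbh varied between naive animals, with differences of −35.7 and 33 points, and between RIPC animals, from −16.7 to 25. The contrasts of 29.5 points with naive (−8.53 to 67.6) and 29.3 with RIPC (−4.22 to 62.9) were not past the threshold (limma, adjusted p = 0.908 and 0.838). Htr1f had a mean of 20.6 ± 34 points in RIPC animals, with a contrast of −39.4 points (−72.6 to −6.20, adjusted p = 0.838). Levels of Hrh2 were higher on the left in all 3 RIPC animals, by 0.67 ± 0.233 cycles, with a contrast of −1.38 cycles (−2.67 to −0.09, unadjusted p = 0.0390, adjusted p = 0.887). Nr3c1 had differences of 0.73 ± 1.36 cycles in naive and −0.51 ± 3.32 in RIPC animals, which spread over both signs.

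**Figure D5:**
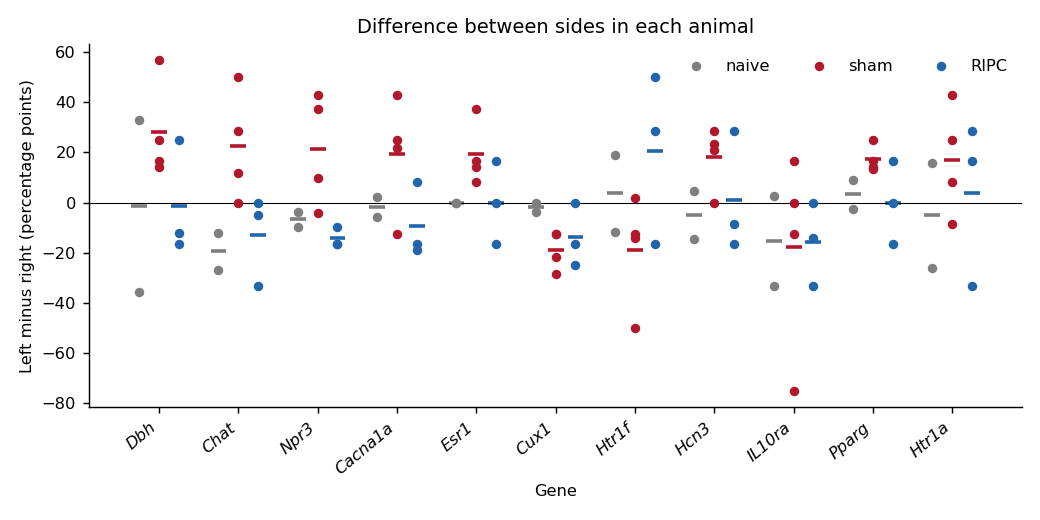
Left minus right difference in the share of samples with a value, in percentage points, for 11 of the 12 genes with the smallest p by share in sham animals; each point is 1 animal (2 naive, 4 sham, 3 RIPC) and bars are group means. The genes were chosen on the sham animals, whose points therefore lie away from 0 by choice, and for Chat no naive or RIPC animal lies above 0.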

How the data were processed

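Per the labels, neurons were laser-captured from left and right DMV and assayed by microfluidic RT-qPCR after preamplification. The deposited values are raw Ct (a score with no normalization by the authors, empty below the limit of detection), from 5.33 to 26.6 cycles in sham samples. Which chip held a sample is not given here. The deposited table has 168 assays of 165 genes in 218 columns, none with identical values. All 165 symbols matched RefSeq's rat genes (GRCr8) when case was ignored. Depth per sample is how many assays gave a value.

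Duplicate assays and second runs were averaged. Each Ct was subtracted from the sample's median Ct over the same 35 reference genes, those found in most kept samples of the series. Shares were tested for genes found in 10% to 95% of kept sham samples. Levels needed 2 positive samples per side and 3 animals. Differences between the sides of each animal were tested with limma 3.58.1 in R 4.3.3 (an intercept, moderated variances, two-sided, Benjamini-Hochberg over all genes tested), and single values by exact sign-flip permutation in Python 3.11.15. The same animal gave both sides, which pairs them; the sample labels number 4 sham animals where the protocol text gives 3 replicates, and the sample labels were followed. Wilson intervals were computed with scipy 1.17.1. For clustering, levels were cut into 5 bins, and samples were joined by average linkage on correlation distance. Contrasts with naive and RIPC rats used animals with at least 2 samples per side. The fits were tested on simulated data.

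The named genes are any past the threshold, the 12 smallest p by share and 8 by level, and 15 fixed genes; E2f1, Trpm7, Cacna1d, Hcn4, Scn2a, Gabra2 and Gabre were added after their values were seen. Results of some genes are not reported here. Members and gene lists were chosen with earlier results of these data known.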

Additional observations from a re-analysis of the deposited data

How the results depend on the processing

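The counts of genes called stayed at 0 by share and 0 by level in every alternative run, with single neurons only testable by share over 2 animals. Without pairing the sides by animal (no replicate block) 0 genes were called by share and 0 by level, and genes with an unadjusted p under 0.05 numbered 0 and 4. The smallest adjusted p over the alternatives was 0.208 by share, with animals weighted by their samples, and 0.0808 by level, with at least 84 assays per sample, which kept 36 samples. Tests over samples also called 0, with 3 genes (Cochran-Mantel-Haenszel, share) and 1 gene (Welch, level) at an unadjusted p under 0.05; they take samples that share an animal as separate and say nothing on how the count holds over animals. Leaving out pools of more than 5 cells, or level values more than 5 cycles below the median of their gene, both chosen after seeing the data, called 0. The contrasts with naive and RIPC animals also called 0 in each alternative.

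Of the alternative values of the 43 named gene results 359 kept their sign and 35 reversed. The causes were not tested. With at least 84 assays the share difference was 5.56 points for Htr1f, 11.1 for Lepr, −7.41 for Hrh3 and 2.78 for Hrh4, the level difference was −0.37 cycles for Gad2, and the difference in the largest cluster was −9.72 points. With pools only the share differences were 7.99 for Gad2, −6.25 for Hrh3, 3.33 for Hrh4 and −0.694 for Gfap, and the level differences 0.56 for Npy1r, −0.0051 for Ache, −0.25 for Gad2 and 0.32 for Gfap. Within sample type Hrh3 was at −0.047 points and Hcrtr1 at −0.062 cycles. Adjusted for genes detected, Hrh3 was at −4.10 points. With the low level values left out Ache was at −0.14 and Camk2a at −0.16 cycles. The clusters were not part of these counts and were formed anew in each run. The largest cluster held 96 samples of the series in the main run. With Ward linkage it held 50, with a difference of −2.14 points, and with at least 84 assays 41, with −9.72 points. These are not the same set of samples, so a change of sign between them cannot be read as a reversal.

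Leaving out 1 animal turned the sign of some differences, among them those of IL10ra (−17.7 points with all animals) and Gad2 (−10.2 points). Share differences then ranged from −29.2 to 1.39 points for IL10ra, −13.1 to 2.46 for Gad1, −17.8 to 1.63 for Gad2, −7.78 to 1.98 for Th, −8.33 to 6.67 for Lepr, −2.50 to 9.72 for Hrh3 and −0.794 to 13.9 for Gfap. Level differences ranged from −0.17 to 0.35 cycles for Ache, −0.95 to 0.26 for Gad1, −0.58 to 1.01 for Gad2, −0.64 to 1.63 for Cartpt, −0.87 to 0.15 for Hrh4, −0.05 to 0.83 for Hcrtr1, −0.55 to 0.76 for Camk2a and −0.51 to 0.10 for Gfap. The number of animals and of positive samples per side limits every value.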
